A study of Caenorhabditis elegans with 6 samples.

Results

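Glutathione S-transferases join the tripeptide glutathione to electrophilic compounds, which makes reactive chemicals and products of lipid peroxidation soluble and ready for export. In Caenorhabditis elegans most of them are encoded by the gst- genes, a large family with many members expressed in the intestine. Several members, above all gst-4, are induced through the transcription factor SKN-1, the worm counterpart of Nrf, when animals meet oxidants or foreign chemicals. All probe sets whose deposited gene symbol begins with gst- were taken, and there were 44 among the 29317 probe sets of the table, of which 27568 carried a gene name and were tested. Each of the 44 symbols had 1 probe set, so the choice of the brightest probe set per symbol removed none. The deposited description names a glutathione S-transferase for 43 of the 44 members. The exception is gst-42, described as a probable maleylacetoacetate isomerase, an enzyme of tyrosine breakdown.

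The study compared 3 groups of 2 arrays each. All animals were whole worms of the wild-type strain N2, grown at 20 °C, labelled as young adults and 3 days past hatching. Larvae were placed in S medium 16 to 18 h after hatching and kept there for 48 h with 100 µM Ponceau Red, with 100 µM tartrazine, or with water alone. Both colorants are synthetic azo dyes. Total RNA of 3.5 ng per sample was amplified to biotin-labelled single-stranded cDNA and hybridised to Affymetrix arrays, and the values are log2 signals after robust multi-array averaging (RMA). The column names number the arrays, and the same numbers are used here: water arrays 1 and 2, Ponceau Red arrays 2 and 3, tartrazine arrays 1 and 2. The labels call the samples of a group independent trials but say nothing of separate cultures, so p-values measure the spread between these arrays.

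Every sample is labelled young adult, but yolk genes were low in 3 arrays, and 1 Ponceau Red array stood apart from the other. The 6 vitellogenin genes, which encode yolk made by the adult intestine, had a median signal of 1.92 and 2.08 in water and 1.94 in Ponceau Red array 3. In Ponceau Red array 2 that median was 10.82, and in the tartrazine arrays it was 9.72 and 10.39. In the first 3 of these arrays 1, 1 and 2 of the 6 vitellogenin genes were above the array median, and in the others all 6 were. The 6 adult cuticle genes had medians between 2.60 and 2.99 in all 6 arrays, but they did not move together. Among them col-19 read 3.19 and 3.20 in water, 8.12 and 2.40 in Ponceau Red, and 6.93 and 7.91 in tartrazine. The gene rol-6 ran the other way, at 6.83 and 6.70 in water, 3.46 and 3.41 in Ponceau Red, and 3.07 and 3.35 in tartrazine. Readings of col-7 were bright in every array, from 8.59 to 9.42, and those of col-62, bli-1 and bli-2 ran from 1.68 to 2.78. The correlation between the Ponceau Red arrays over tested probe sets was 0.844, and that of the water pair was 0.987 and of the tartrazine pair 0.982. Signals ran from 0.44 to 11.65, and the array medians lay between 2.13 and 2.40.

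The family split into genes with a clear signal and genes near the floor of the array. Of the 44 members 24 (54.5%) read above the array median in all 6 arrays, against 38.3% of all tested probe sets. Another 9 members (20.5%) were at or below it in every array, against 35.3%, with signals from 1.15 to 2.38. These were gst-2, gst-17, gst-18, gst-21, gst-25, gst-30, gst-32, gst-37 and gst-41, and no statement about their regulation can rest on such readings. The remaining 11 were above the median in some arrays and not in others. A fixed rule chose 15 members for description in every array, and any other member is singled out here after its values were seen. The median over the 44 members was 4.41 and 4.10 in water, 3.39 and 4.02 in Ponceau Red, and 2.89 and 2.98 in tartrazine. The water arrays and Ponceau Red array 3 thus held the higher family medians, and both tartrazine arrays the lowest.

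**Figure D1:**
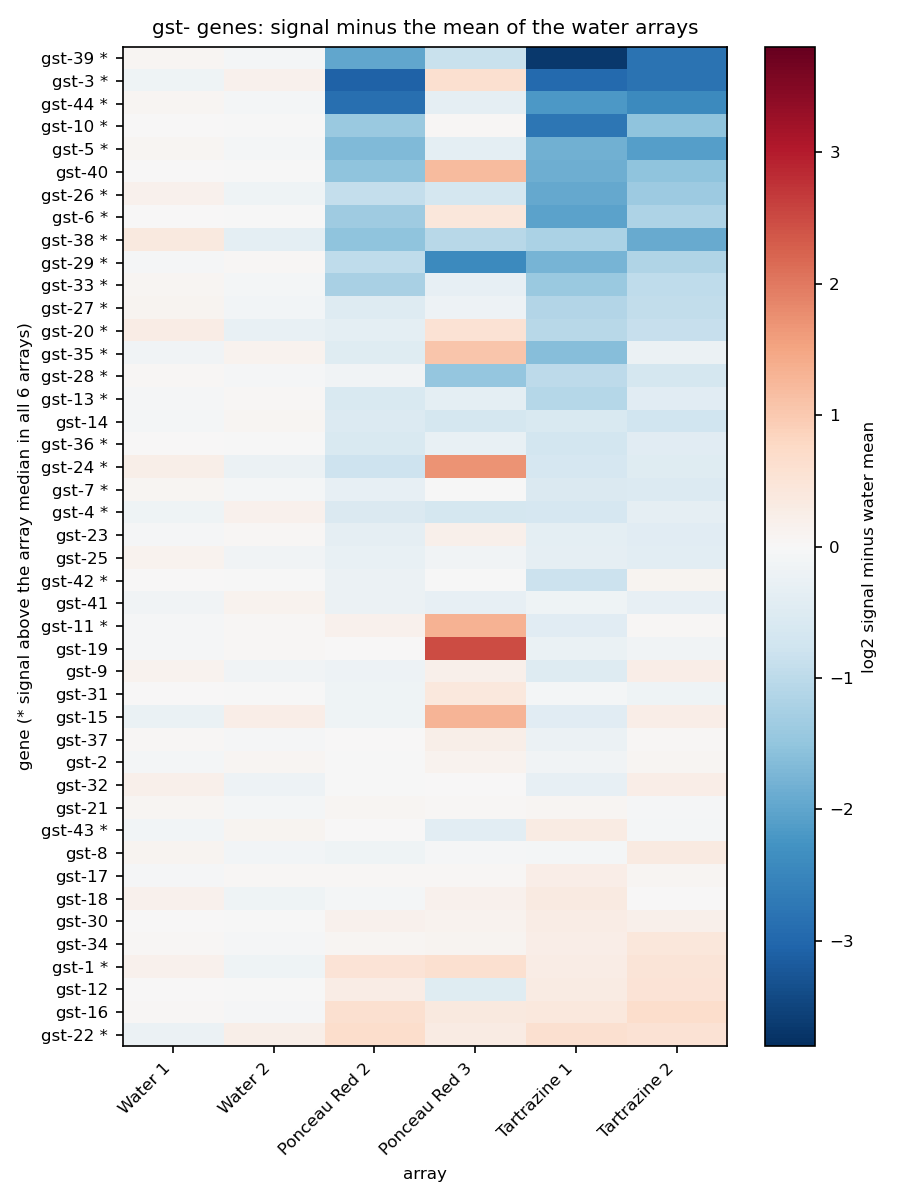
Signal of each of the 44 gst- genes in each of the 6 arrays, as log2 signal minus the mean of the water arrays (colour scale); an asterisk marks the 24 members above the array median in all 6 arrays. Both tartrazine columns are blue for most of the upper members, while Ponceau Red array 3 is red for gst-19, gst-24, gst-11, gst-15, gst-40 and gst-35.

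In tartrazine 2 members fell and none rose, by limma over all 27568 probe sets with Benjamini-Hochberg adjusted p under 0.05. gst-39 read 6.04 and 5.86 in water, 3.97 and 5.10 in Ponceau Red, and 2.28 and 3.15 in tartrazine. The 3 groups did not overlap, with water highest and tartrazine lowest. The tartrazine difference from water was -3.24 ± 0.49 (SE, n = 2 and 2), 9.46-fold lower as measured, with an adjusted p of 0.0394 in limma. The tartrazine array 1 reading lay close to that array's median of 2.22, so a still lower level there could not be resolved and the fold is no exact size.

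The other member that fell, gst-26, is a close neighbour of gst-39 on chromosome II. It read 6.82 and 6.50 in water, 5.75 and 5.99 in Ponceau Red, and 4.73 and 5.28 in tartrazine. Again the groups did not overlap and Ponceau Red lay between the others. The tartrazine difference was -1.66 ± 0.26 (SE, n = 2 and 2), 3.15-fold lower, with an adjusted p of 0.0446 in limma. In whole animals, fewer cells of a type and less transcript per cell cannot be told apart.

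These 2 of 44 members are 4.55% of the family, and 4.38% of all tested probe sets were called in this comparison, 3.86% lower and 0.519% higher. At an unadjusted limma p under 0.05 there were 14 of the 44 members and 7896 of the 27568 probe sets. The family's share was therefore near the background. With a water or a tartrazine array left out, the difference ran from -3.67 to -2.81 for gst-39 and from -1.93 to -1.38 for gst-26. Both calls ended in these fits, which leave 1 array in a group. Every other call of this comparison ended there too, so the loss says nothing particular to the 2 genes. Neither call held in limma when arrays were centred on their medians, with adjusted p of 0.0533 for gst-39 and 0.0698 for gst-26. That of gst-26 also ended when dim probe sets were left out, at 0.0548. The spread in the fit came from all 6 arrays, and with the 4 water and tartrazine arrays alone 15 members fell and none rose, which is 34.1% of the family against 35.1% of all probe sets (19% lower, 16.1% higher).

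The direction of the tartrazine differences was mostly downward in the family, whether called or not. Both tartrazine arrays were below both water arrays for 26 of 44 members (59.1%), against 34.3% of all tested probe sets. Both were above for 7 members (15.9%), against 33.7%. Members near the floor were counted, gst-14, gst-19, gst-23, gst-25, gst-31 and gst-41 among the 26 and gst-12, gst-16, gst-17, gst-30 and gst-34 among the 7. The median difference over the 44 members was -0.39, against 0.02 over all tested probe sets. Over the 24 members above the median in every array it was -0.94, and over the 10552 probe sets likewise above it was -0.06. Array medians were themselves 0.20 lower in tartrazine than in water, and the family median was -0.19 with arrays centred and -0.85 in the second deposited table.

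A difference of over 2-fold between the tartrazine and water means was seen in 12 members (27.3%), against 27% of all tested probe sets. All 12 were lower in tartrazine, whereas 52.6% of all such probe sets were. Of these, gst-3 read 7.59 and 7.92 in water, 4.67 and 8.35 in Ponceau Red, and 4.80 and 4.96 in tartrazine. The tartrazine and water readings of gst-3 were far apart, and the Ponceau Red arrays fell on either side of that gap. The difference of -2.88 ± 1.202 (SE, n = 2 and 2) had an adjusted p of 0.198 in limma. gst-44 read 7.34 and 7.20 in water, 4.41 and 6.92 in Ponceau Red, and 5.10 and 4.86 in tartrazine. Here too Ponceau Red array 2 sat with tartrazine and array 3 with water. The tartrazine difference for gst-44 was -2.29 ± 0.83 (SE, n = 2 and 2), with an adjusted p of 0.160 in limma.

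**Figure D2:**
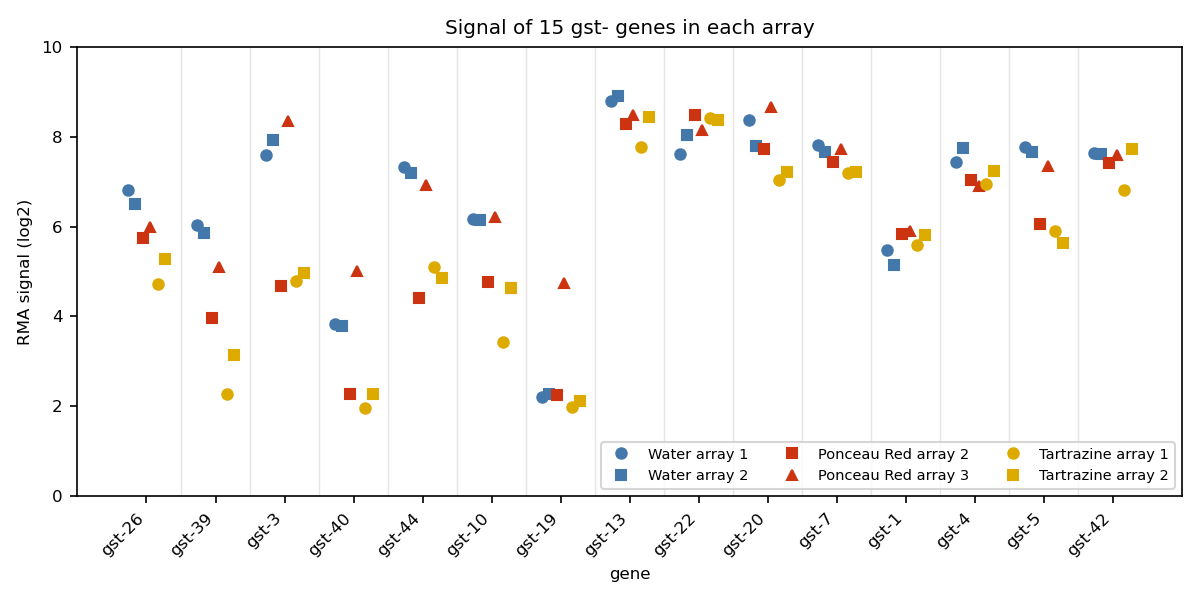
RMA log2 signal of 15 gst- genes in each of the 6 arrays (1 point per array, colour for group, shape for array number). For gst-39 and gst-26 the 3 groups separate, while for gst-3, gst-44 and gst-40 Ponceau Red array 2 lies with the tartrazine arrays and array 3 with or above the water arrays.

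Of the members with known detoxification roles none passed the test. gst-5 and gst-10 encode enzymes that conjugate hydroxynonenal, a toxic product of lipid peroxidation. gst-5 read 7.78 and 7.66 in water, 6.05 and 7.36 in Ponceau Red, and 5.89 and 5.63 in tartrazine. Its tartrazine difference was -1.96 ± 0.45 (SE, n = 2 and 2), with an adjusted p of 0.0892 in limma. Both tartrazine arrays were below every other array, but the change did not pass the test. gst-10 read 6.18 and 6.15 in water, 4.76 and 6.21 in Ponceau Red, and 3.43 and 4.64 in tartrazine. The 2 tartrazine arrays were themselves over 2-fold apart for gst-10, and the difference of -2.13 ± 0.62 (SE, n = 2 and 2) had an adjusted p of 0.124 in limma.

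The SKN-1 reporter gene gst-4, used widely as a readout of oxidative stress, was not higher in either colorant. It read 7.44 and 7.74 in water, 7.03 and 6.91 in Ponceau Red, and 6.95 and 7.24 in tartrazine, so that each colorant array was below each water array. Signals differed from water by -0.62 ± 0.20 under Ponceau Red and -0.50 ± 0.20 under tartrazine (SE, n = 2 and 2), with adjusted p of 0.262 and 0.191 in limma. Their 95% intervals ran from -1.15 to -0.09 and from -1.02 to 0.03, on the log2 scale.

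Both directions were seen among the other well-known or bright members, none of which passed the test. gst-1, which encodes an enzyme of the pi class, read 5.49 and 5.14 in water, 5.84 and 5.91 in Ponceau Red, and 5.60 and 5.81 in tartrazine. It was 1 of the few members for which all 4 colorant arrays exceeded both water arrays, by 0.56 ± 0.20 in Ponceau Red and 0.39 ± 0.20 in tartrazine (SE, n = 2 and 2). The adjusted p were 0.291 and 0.262 in limma, and in the second deposited table the tartrazine difference of gst-1 was -0.30. gst-22 was likewise higher in the colorant arrays, at 7.61 and 8.04 in water, 8.48 and 8.14 in Ponceau Red, and 8.43 and 8.37 in tartrazine. Its tartrazine difference of 0.58 ± 0.23 (SE, n = 2 and 2) was the highest of the 44 members in that comparison and had an adjusted p of 0.183 in limma.

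Lower readings in tartrazine were seen for gst-13, gst-20 and gst-7. gst-13 read 8.79 and 8.91 in water, 8.27 and 8.48 in Ponceau Red, and 7.78 and 8.43 in tartrazine. gst-20 read 8.38 and 7.80 in water, 7.72 and 8.65 in Ponceau Red, and 7.03 and 7.21 in tartrazine. gst-7 read 7.81 and 7.67 in water, 7.44 and 7.72 in Ponceau Red, and 7.20 and 7.22 in tartrazine. For these 3 genes both tartrazine arrays were below both water arrays, by 0.53 to 0.97 on the log2 scale, with adjusted p from 0.143 to 0.185 in limma. gst-42 overlapped between the groups, at 7.63 and 7.63 in water, 7.42 and 7.60 in Ponceau Red, and 6.81 and 7.74 in tartrazine, and its tartrazine difference of -0.36 ± 0.34 (SE, n = 2 and 2) had an adjusted p of 0.536 in limma.

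**Figure D3:**
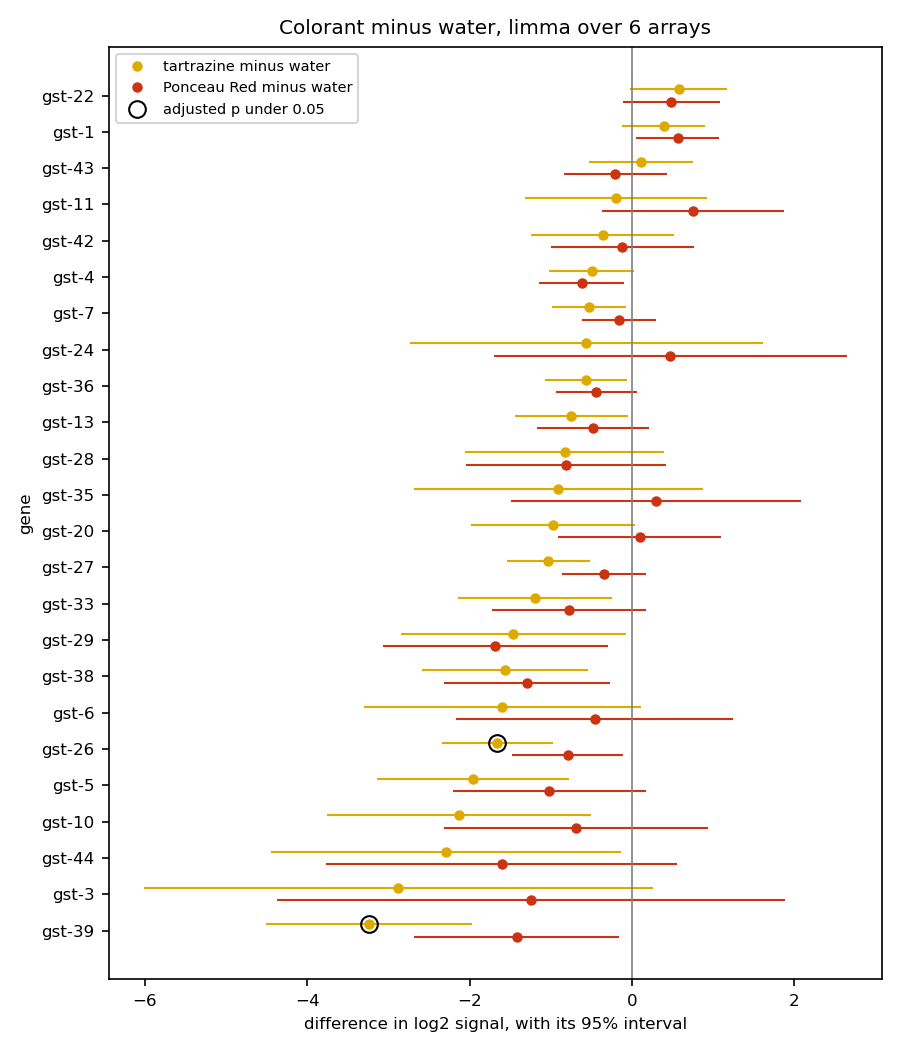
Fitted log2 difference from water with its 95% interval for the 24 gst- genes above the array median in all arrays, for tartrazine (yellow) and Ponceau Red (red), 2 arrays per group. Circles mark the 2 differences with an adjusted p under 0.05, gst-39 and gst-26 in tartrazine, and most other intervals reach across 0.

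In Ponceau Red no member passed the limma test against water, while 2.89% of all tested probe sets did. At an unadjusted limma p under 0.05 there were 7 of the 44 members and 4096 of the 27568 probe sets. The median difference over the 44 members was -0.11, against 0.06 over all probe sets, and with arrays centred the family median turned to 0.11. Over the 24 members above the median in every array it was -0.47, and over the 10552 probe sets likewise above it was 0.15. Both Ponceau Red arrays were below both water arrays for 15 members (34.1%), against 23.1% of all tested probe sets, and above for 6 (13.6%), against 24.8%. Members near the floor were again counted, gst-14 and gst-41 among the 15 and gst-16, gst-30 and gst-34 among the 6. Array medians were 0.22 lower in Ponceau Red than in water.

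The 2 Ponceau Red arrays gave different pictures of the family. They were over 2-fold apart for 14 members (31.8%), against 24.0% of all tested probe sets. The water arrays were that far apart for none of the 44 (1.64% of all) and the tartrazine arrays for gst-10 and gst-35 (2.9% of all). In 12 of the 14 members array 3 was the higher, and over all probe sets 48.6% of such differences ran that way. The exceptions were gst-28 and gst-29, named here after their values were seen.

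Without array 3, 8 members fell in Ponceau Red and none rose, which is 18.2% against 26.1% of all probe sets (13.1% in each direction). The 8 were gst-3, gst-5, gst-6, gst-33, gst-38, gst-39, gst-40 and gst-44. Without array 2, 4 members rose (gst-11, gst-19, gst-24 and gst-40) and gst-28 and gst-29 fell, 13.6% against 11.4% of all probe sets (4.99% higher, 6.38% lower). gst-40 was thus called in opposite directions. It read 3.83 and 3.79 in water, 2.28 and 5.005 in Ponceau Red, and 1.96 and 2.27 in tartrazine. A single array stood for Ponceau Red in these fits and was assumed to vary like the other groups.

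Some members peaked in Ponceau Red array 3 alone. It was the highest of the 6 arrays for 15 members (34.1%), against 25.5% of all tested probe sets, and the lowest for 5 (11.4%), against 15.2%. For gst-11, gst-15, gst-19, gst-24 and gst-40 it exceeded each of the other 5 arrays over 2-fold, which is 11.4% of the family against 3.41% of all probe sets. It was over 2-fold below each of the others for none of the 44, against 1.15%. gst-19 read 2.21 and 2.27 in water, 2.25 and 4.73 in Ponceau Red, and 1.97 and 2.12 in tartrazine. All arrays but 1 placed gst-19 near the array median, so its difference of 1.25 ± 0.82 (SE, n = 2 and 2) in Ponceau Red, with an adjusted p of 0.555 in limma, came from array 3 alone. gst-24, named here after its values were seen, read 5.19 and 4.72 in water, 4.18 and 6.68 in Ponceau Red, and 4.31 and 4.48 in tartrazine.

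**Figure D4:**
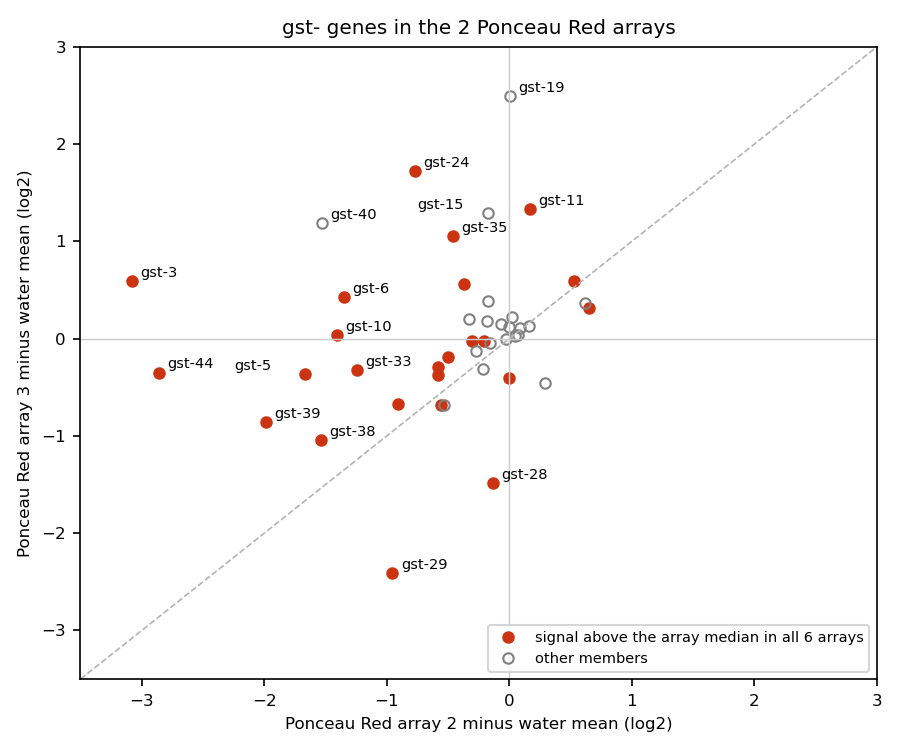
Log2 signal minus the water mean for the 44 gst- genes in Ponceau Red array 2 (horizontal axis) and array 3 (vertical axis); filled points are the 24 members above the array median in all arrays and the dashed line marks equal values. Points for gst-3, gst-44, gst-39 and gst-5 lie far to the left with array 3 nearer to 0, and gst-19 and gst-24 lie high in array 3.

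For the 12 members over 2-fold lower in tartrazine than in water, Ponceau Red array 2 was nearer to tartrazine in 11 and array 3 was nearer to water in 10. Over all probe sets with such a difference these shares were 95.9% and 72.9%, so the members' shares were of the same order. Medians of moulting and oocyte genes separated the arrays in the same way. Moulting epidermis genes, 13 of 13 measured and all above the array median in every array, had median signals of 7.08 and 7.26 in water, 3.81 and 6.52 in Ponceau Red, and 3.57 and 3.64 in tartrazine. The summed signal of this list was 11.65 and 11.60 in water, 8.77 and 10.70 in Ponceau Red, and 8.26 and 8.37 in tartrazine, in log2. Within the list nas-37 was higher in tartrazine than in water, and sqt-1 and mlt-10 were low in Ponceau Red array 3, at 2.96 and 2.18. The 13 oocyte genes had medians of 3.27 and 2.36 in water, 7.55 and 2.43 in Ponceau Red, and 7.81 and 7.75 in tartrazine.

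Lists of several tissues, among them the intestine, where many gst- genes are expressed, also had lower medians in tartrazine than in water. The intestine list of 11, of which 10 were above the array median in every array, had medians of 7.15 and 7.40 in water, 6.22 and 6.74 in Ponceau Red, and 5.51 and 6.12 in tartrazine. Its summed signal was 12.05 and 12.12 in water, 11.68 and 11.83 in Ponceau Red, and 10.90 and 11.48 in tartrazine, in log2. Not every gene of the list was lower, and cpr-6, at 10.01 and 10.11 in water, overlapped with its readings of 9.57 and 10.37 in tartrazine. Neuron genes had medians of 6.70 and 6.80 in water, 6.002 and 6.89 in Ponceau Red, and 5.36 and 5.77 in tartrazine. Pharynx genes had 4.43 and 4.73 in water, 3.34 and 2.82 in Ponceau Red, and 3.39 and 3.44 in tartrazine. Their summed signal was 7.54 and 7.87 in water, 6.71 and 7.92 in Ponceau Red, and 6.90 and 6.71 in tartrazine, in log2. In Ponceau Red array 3 this sum was the highest, with pha-4 at 7.64, although the median was the lowest. Of this list tni-4 was higher in tartrazine, at 5.91 and 5.46, than in water, at 4.51 and 5.22. Body wall muscle genes, 7 of 7 above the median throughout, had medians of 8.04 and 8.08 in water, 8.06 and 7.94 in Ponceau Red, and 7.67 and 7.38 in tartrazine, and their summed signal was 11.72 and 11.71, 11.50 and 11.71, and 10.99 and 11.20, in log2. The part of stage or of tissue content in the gst- differences was not tested.

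**Figure D5:**
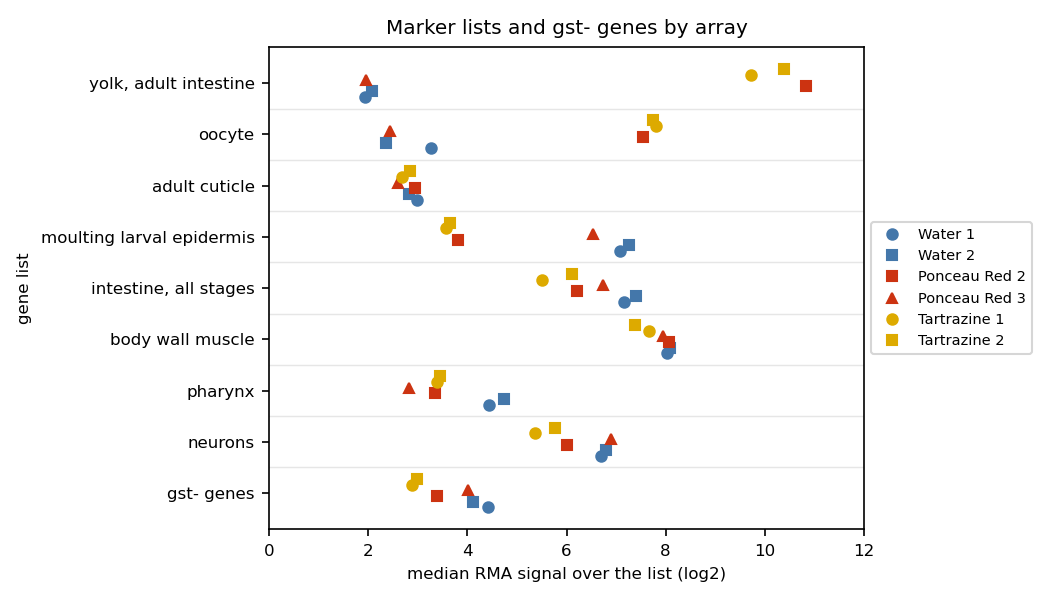
Median RMA log2 signal of each marker list and of the 44 gst- genes in each of the 6 arrays (1 point per array). Yolk and oocyte genes are high in the tartrazine arrays and Ponceau Red array 2, moulting epidermis genes are high in the water arrays and Ponceau Red array 3, and the gst- medians run from 2.89 in tartrazine array 1 to 4.41 in water array 1.

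The colorants were given at the same dose and for the same time, and their direct comparison called no member and 0.0% of all tested probe sets. At an unadjusted p under 0.05 limma gave 4 of the 44 members and 1243 of the 27568 probe sets. The lowest adjusted p over all probe sets was 0.681. The Ponceau Red minus tartrazine difference was 1.82 for gst-39 (95% interval 0.55 to 3.09) and 0.86 for gst-26 (0.18 to 1.55), with an adjusted p of 0.681 each. For gst-4 it was -0.12 (-0.65 to 0.40) and for gst-3 it was 1.63 (-1.50 to 4.77), which leaves room for differences in either direction. Both Ponceau Red arrays were above both tartrazine arrays for 13 members (29.5%), against 18.7% of all probe sets, and below for 4 (9.09%), against 16.8%. The median difference was 0.21 over the family and -0.0038 over all probe sets, and the family value was 0.080 without Ponceau Red array 3, 0.56 in the second deposited table and 0.69 without dim probe sets. Without Ponceau Red array 2, 15 members were called, 14 of them higher in Ponceau Red and gst-12 lower, which is 34.1% against 27.7% of all probe sets (14.7% higher, 13% lower).

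Many of the members, but not all, lie close together in the genome. By RefSeq gene order in assembly WBcel235, 25 of the 44 are on chromosome II, 9 on V, 4 on IV, 3 on X, 2 on I and 1 on III. With at most 3 coding genes allowed between neighbours, 25 members formed 4 clusters and 19 lay outside them. None of the 44 probe sets was marked for cross-hybridisation in the deposited annotation, but close paralogues share sequence and the signal of 1 may include another. Both called genes belong to a cluster of 9 on chromosome II that also holds gst-27, gst-28, gst-29, gst-31, gst-32, gst-34 and gst-35. In 7 of these 9 both tartrazine arrays were below both water arrays, against 26 of all 44 members and 34.3% of all tested probe sets, and the median difference was -0.91 in tartrazine and -0.34 in Ponceau Red.

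Other members of this cluster are described here after their values were seen. gst-31, next to gst-39, read 2.04 and 2.04 in water, 1.87 and 2.43 in Ponceau Red, and 1.98 and 1.89 in tartrazine, near the floor. gst-27 read 6.40 and 6.19 in water, 5.80 and 6.10 in Ponceau Red, and 5.17 and 5.36 in tartrazine, with a tartrazine difference of -1.03 ± 0.20 (SE, n = 2 and 2) and an adjusted p of 0.0645 in limma. gst-29 read 4.94 and 5.01 in water, 4.02 and 2.56 in Ponceau Red, and 3.20 and 3.83 in tartrazine. Its lowest reading was in Ponceau Red array 3, as was that of gst-28, which read 5.03 and 4.93 in water, 4.84 and 3.50 in Ponceau Red, and 3.98 and 4.32 in tartrazine. These were the reverse of the pattern of gst-3 and gst-44, for which array 2 was the lower.

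The other large cluster on chromosome II had median differences near 0. Its 9 members, gst-12, gst-14, gst-15, gst-16, gst-17, gst-18, gst-19, gst-20 and gst-24, had a median difference of -0.09 in tartrazine and 0.10 in Ponceau Red, and in 4 of the 9 both tartrazine arrays were below both water arrays. Only 2 of these 9 were above the array median in every array, against 6 of the 9 in the cluster of gst-39. A group of 4, gst-6, gst-7, gst-8 and gst-9, had medians of -0.32 and -0.13, and the 3 on chromosome IV, gst-2, gst-3 and gst-4, had -0.50 and -0.62, with 2 of 4 and 2 of 3 lower in both tartrazine arrays. Whether the clusters differ was not tested.

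The deposited annotation assigns 7 members to the innate immune response: gst-1, gst-5, gst-6, gst-7, gst-13, gst-24 and gst-38. All 7 were above the array median in every array, against 17 of the 37 others. In 6 of the 7 both tartrazine arrays were below both water arrays, against 20 of the 37 and 34.3% of all tested probe sets. The median tartrazine difference was -0.75 for the 7 and -0.23 for the 37, and these groups differ in signal level as well.

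Other genes of glutathione metabolism and of the SKN-1 pathway were called at about the background rate. Of 78 listed genes 77 were measured, and 0 rose and 2 fell in each colorant against water by the same limma test, where 2.89% and 4.38% of all probe sets were called, and 0 were called between the colorants. The regulator skn-1, described for its role, read 6.97 and 7.16 in water, 6.63 and 7.59 in Ponceau Red, and 6.31 and 6.15 in tartrazine. Both tartrazine arrays were the lowest for skn-1, at a difference of -0.83 ± 0.35 (SE, n = 2 and 2) and an adjusted p of 0.202. Of the 18 genes of SKN-1 regulation, 14 were lower than water in tartrazine and 5 in Ponceau Red. xrep-4, named here after its values were seen, was higher in both. It differed by 1.49 in tartrazine and 1.21 in Ponceau Red, with adjusted p of 0.0881 and 0.205 in limma. The median difference over the 77 genes was 0.03 in Ponceau Red and -0.19 in tartrazine.

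Among 8 measured genes of glutathione supply and turnover, C53D5.5 fell in tartrazine. The deposited annotation gives it gamma-glutamyltransferase activity, which splits extracellular glutathione. It read 5.59 and 5.64 in water, 4.84 and 5.18 in Ponceau Red, and 4.42 and 4.50 in tartrazine, a tartrazine difference of -1.15 ± 0.18 (SE, n = 2 and 2) with an adjusted p of 0.0439. This call ended in limma with arrays centred, at an adjusted p of 0.0704, and with dim probe sets left out, at 0.0760. It also ended when any water or tartrazine array was left out, as did every call of that comparison. gcs-1, also described for its role, encodes the rate-limiting enzyme of glutathione synthesis and is a SKN-1 target. It read 7.28 and 7.50 in water, 6.79 and 7.09 in Ponceau Red, and 6.93 and 7.02 in tartrazine, below water in all 4 colorant arrays with adjusted p of 0.383 and 0.227. The list did not move as 1, and 4 of its 8 genes were lower than water in Ponceau Red and 5 in tartrazine. E01A2.1 (gclm-1), named here after its values were seen, was above water in all 4 colorant arrays. It differed by 0.34 in Ponceau Red and 0.73 in tartrazine, with adjusted p of 0.543 and 0.123 in limma. Of the other transferases with the annotation of C53D5.5, T03D8.6 differed from water by -1.09 in Ponceau Red and -2.01 in tartrazine. It read 6.14 and 6.17 in water, 3.71 and 6.41 in Ponceau Red, and 4.09 and 4.19 in tartrazine. Its Ponceau Red difference thus came from array 2 alone, and array 3 was above both water arrays. H14N18.4 differed by 0.74 in Ponceau Red and 0.03 in tartrazine, and none of these was called.

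Among 23 enzymes of glutathione use and related redox control, 9 conjugate exporters and 18 genes of SKN-1 regulation none was called. The largest differences from water in the first list were 1.87 in tartrazine for the glutaredoxin gene glrx-21, 1.83 in Ponceau Red for djr-1.2, a relative of human DJ-1 whose glyoxalase activity needs no glutathione, and -1.81 in tartrazine for the glutathione peroxidase gene gpx-5. djr-1.2 read 6.47 in Ponceau Red array 3 and from 2.53 to 3.08 in the other 5 arrays. Among the exporters, ABC transporters of the multidrug resistance-associated type, mrp-7 differed by 0.95, mrp-4 by 0.93 and mrp-2 by -0.49 in tartrazine. Among the regulators, the differences in tartrazine were -1.77 for gsk-3, a kinase that restrains SKN-1, 1.69 for the ubiquitin ligase scaffold cul-4 and 1.67 for brap-2, with adjusted p of 0.0686, 0.0964 and 0.123 in limma.

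Of 20 other SKN-1 targets lips-6 fell in both colorants and sod-1 in Ponceau Red. In each colorant 14 of the 20 were lower than water, called or not. nit-1, named here after its values were seen, was higher by 1.01 in Ponceau Red and 0.99 in tartrazine, not called. lips-6, a lipase-related gene, read 5.87 and 5.89 in water, 1.97 and 2.27 in Ponceau Red, and 1.91 and 1.81 in tartrazine. All 4 colorant readings of lips-6 were near or below their array medians, so the differences are limited by the floor and are no exact sizes. As measured they were -3.76 ± 0.18 in Ponceau Red and -4.02 ± 0.18 in tartrazine (SE, n = 2 and 2), with adjusted p of 0.00515 and 0.00503. Both calls ended when a water array was left out, and that in tartrazine also when a tartrazine array was left out. Every call of the comparison ended in these fits, so the loss says nothing particular to lips-6. sod-1, which encodes a cytosolic superoxide dismutase, read 8.42 and 8.38 in water, 7.37 and 7.23 in Ponceau Red, and 7.59 and 7.41 in tartrazine. Its Ponceau Red difference was -1.102 ± 0.16 (SE, n = 2 and 2) with an adjusted p of 0.0464 in limma. The call ended when arrays were centred (0.0813), dim probe sets were left out (0.134) or a tartrazine array was left out. It also ended when a water array was left out, as did every call of that comparison.

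Neither of the remaining genes named from that list was called. The metallothionein gene mtl-1 differed from water by -3.09 in Ponceau Red (adjusted p 0.0684) and -1.05 in tartrazine, and cdr-4, a cadmium-responsive gene, by -1.23 and -3.13. mtl-1 read 8.68 and 9.04 in water, 6.50 and 5.03 in Ponceau Red, and 7.57 and 8.06 in tartrazine. It was therefore lowest in the Ponceau Red arrays, with no overlap between groups, whereas cdr-4 at 7.67 and 7.84, 4.98 and 8.06, and 4.42 and 4.83 was highest in Ponceau Red array 3, as gst-3 was.

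The authors also deposited a table for each colorant against its control, with linear ratios and unadjusted p-values. In the authors' deposited table for Ponceau Red all 44 members are listed, 22 with a ratio under 1. In the authors' deposited table gst-16 alone has an unadjusted p under 0.05, at a ratio of 1.45 and p = 0.0202, against 1.71% of all listed probe sets. In the arrays used here gst-16 read 1.90 and 1.84 in water and 2.49 and 2.23 in Ponceau Red, close to the array medians and so near the floor. The authors' deposited table for Ponceau Red gives gst-39 a ratio of 0.736, gst-4 a ratio of 1.01 and gst-3 a ratio of 1.11. The authors' deposited table for tartrazine lists 1746 of the 29317 probe sets, all with an unadjusted p under 0.05, and 4 of the 44 members are among them. In the authors' deposited table these are gst-20 at a ratio of 0.499, gst-23 at 0.866, gst-31 at 0.899 and gst-30 at 1.13. Over the 6 arrays used here gst-23, gst-30 and gst-31 read from 1.35 to 2.43, near the floor. No statement about their regulation can rest on these ratios. gst-39 and gst-26 are not among the 1746. In both of the authors' deposited tables the between-group sum of squares was 1.2 times the squared log2 ratio, which is the factor for groups of 3 and 2 arrays, whereas groups of 2 and 2 give 1.0. Their ratios therefore do not come from the 4 arrays that each comparison here uses.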

How the data were processed

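The authors deposited log2 RMA signals per transcript cluster over 6 arrays, per the file headers, and a second table of log2 RMA signals by labelled sample. RMA is named in the submitters' processing notes, but its version, background options and genome build are not given in the sources used here. The authors' comparison tables hold, per the file headers, a linear ratio (fold), an unadjusted p-value, with a mark in place of a number for some probe sets, and sums of squares (scores computed by the authors). Probe sets were named by accession or symbol through RefSeq's gene table for WBcel235, 245 kept the deposited name, and 1749 unnamed ones were left out.

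The 27568 named probe sets of the table over 6 arrays entered 1 limma fit (lmFit and eBayes, version 3.58.1, under R 4.3.3, with 3 residual and 1.79 prior degrees of freedom, two-sided, Benjamini-Hochberg over all probe sets), without a block or a filter on low signal. The SE and the 95% interval of a difference come from that fit. The number of arrays, 2 per group, limits the precision. The fit was checked on simulated data. Alternatives left out each array, centred arrays, used 4 arrays, dropped dim probe sets, added unnamed ones, or used the second table with and without the labelled trial as a block.

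Named are the called members, the 6 with the largest range, the 4 brightest, gst-1, gst-4, gst-5, gst-7, gst-10 and gst-42, and called or the 3 most different genes of 5 pathway lists. Members, lists and this rule were chosen with earlier results of these data known. W02D9.1 on the supply list matched no probe set under that name and was left out.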

Additional observations from a re-analysis of the deposited data

How the results depend on the processing

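With 2 arrays per group the calls depended on single arrays. With an array left out, the counts over all tested probe sets swung too. The ranges below are therefore not particular to the gst- or pathway genes. Leaving out 1 array at a time gave 0 to 8 members called in Ponceau Red, 0 to 15 in tartrazine and 0 to 15 between the colorants, and family medians of -0.24 to 0.033, -0.52 to -0.33 and 0.080 to 0.32. Pathway genes called ran from 0 to 26, 0 to 38 and 0 to 32. For tartrazine the count of members was 0 with centred arrays, 15 with the 4 arrays alone, 1 with dim probe sets left out and 8 in the second table, and of pathway genes 38, 1 and 7 under the last 3. For Ponceau Red the pathway count was 1 under each of these. Over all tested probe sets the tartrazine count was 972 with centred arrays, 9690 with the 4 arrays alone and 2801 in the second table. With dim probe sets left out it was 930 of the 13838 that remained. Family medians were 0.11 and -0.19 in Ponceau Red and tartrazine with centred arrays. With dim probe sets left out they were -0.44, -0.91 and 0.69 for the 3 comparisons, since fewer members remain. In the second table they were -0.85 in tartrazine and 0.56 between the colorants.

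The labels number the trials alike in each group but do not say what a trial shared between groups. Differences between trials correlated at 0.04, 0.16 and -0.04 between pairs of groups, which cannot decide whether a trial was shared. With that trial as a replicate block in the second table, 1 member (gst-39, adjusted p 0.0462, with gst-26 at 0.0527) and 4 pathway genes were called in tartrazine and 1 pathway gene in Ponceau Red, and medians were -0.85 and 0.56. With that block 1197 of all probe sets were called in tartrazine and 263 in Ponceau Red. The second table lies 0.21 above the first in water and Ponceau Red and 0.06 below it in tartrazine, and the cause was not tested.

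Of 648 values for single genes, from 54 differences and 12 alternatives, 549 kept their direction and side of the threshold. Leaving out 1 array at a time, the Ponceau Red difference from water reversed for gst-3 (-3.08 to 0.59), gst-40 (-1.53 to 1.19), gst-10 (-1.41 to 0.040) and gst-20 (-0.37 to 0.56). The tartrazine difference did so for gst-42 (-0.82 to 0.11). Between the colorants it did so for gst-3 (-0.20 to 3.47), gst-44 (-0.57 to 1.94), gst-22 (-0.26 to 0.080), gst-13 (-0.059 to 0.60), gst-4 (-0.27 to 0.022) and gst-42 (-0.23 to 0.71). With centred arrays gst-40 (0.053), gst-7 (0.062) and gst-42 (0.11) reversed in Ponceau Red and gst-19 (0.0087) in tartrazine. In the second table, with or without the block, gst-1 (-0.30) reversed in tartrazine, and gst-22 (0.082), gst-4 (0.21) and sod-1 (0.30) between the colorants. Averaging probe sets of a symbol changes nothing, since each symbol had 1.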
